A study of Mus musculus with 11 samples.

Results

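The mouse genes Cspg4, Snupn, Imp3, Odf3l1, Snx33, Ptpn9, Sin3a and Lingo1 lie side by side on chromosome 9, with starts within 250 kb of the start of Cspg4. They are 8 of the 16228 genes of the expression table, and all 8 passed the filter on low values (a value of 1 in 3 libraries), Odf3l1 with exactly 3 libraries, all of them knockouts. The set was selected on position, and also on measured values: Snupn, Imp3 and Odf3l1 were already known from these libraries to be higher in both knockouts than in controls. Differences of the 8 genes from controls are therefore given as descriptions with standard errors and without a test.

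Cspg4 encodes NG2, a membrane proteoglycan that marks oligodendrocyte precursors and the pericytes of brain capillaries. Its regulatory sequence drives the recombinase in Ng2-Cre mice, so that floxed alleles are recombined in NG2 cells and in the oligodendrocytes they give rise to. The genes around it serve unrelated processes: Snupn (snurportin) carries capped small nuclear ribonucleoproteins back into the nucleus, Imp3 belongs to the U3 ribonucleoprotein that processes ribosomal RNA, Sin3a is the scaffold of a histone deacetylase complex, and Lingo1 is a membrane protein of neurons and oligodendrocytes that restrains myelination.

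RNA was sequenced from punches of cerebral cortex of mice at postnatal day 30, in 11 libraries that the labels describe as biological replicates. There were 4 libraries of genotype Ng2 Cre+ Prkci f/f (Prkci cKO), 3 of genotype Ng2-Cre+ Prkcz f/f (Prkcz cKO) and 4 controls without a Cre label, of which 2 were Pkcz f/+ and 2 Pkcz f/f. Prkci and Prkcz encode atypical protein kinase C paralogs of cell polarity. No control was labelled as carrying Cre and none was of the Prkci line, so Cre, the deleted kinase and the mouse line cannot be told apart in the comparisons with controls. The sources used here do not say whether this Ng2-Cre is a transgene or a knock-in, how much flanking sequence it holds or where it is inserted.

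The values are expression values as normalised by the authors, with column sums of 1021767 to 1082562. The steps between low values correspond to an effective depth of 14740000 to 28170000 reads, lowest in Prkcz cKO replicate 3. Prkci was 67.0 ± 1.47 in Prkci cKO (SD, n = 4) against 87.8 ± 2.52 in controls (SD, n = 4), and Prkcz was 278 ± 15.1 in Prkcz cKO (SD, n = 3) against 323 ± 20.2 in controls (SD, n = 4). Markers of cortical neurons (Snap25, Syt1, Rbfox3, Slc17a7, Gad1 and Gad2) were abundant in every library, with summed values of 8313 to 8994 in Prkci cKO, 8645 to 8971 in Prkcz cKO and 8358 to 8519 in controls. None of these 6 passed the threshold in either comparison with controls (limma; 1 had an unadjusted p under 0.05 in each).

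In GRCm38 (GENCODE M21) the 8 genes follow each other in the order Lingo1, Odf3l1, Cspg4, Snx33, Imp3, Snupn, Ptpn9 and Sin3a. Cspg4 occupies 56865033 to 56899870 on the plus strand. Odf3l1, an outer dense fibre gene related to sperm tail proteins, occupies 56848659 to 56864679 on the minus strand, so that its annotated start lies 0.4 kb from that of Cspg4 and the pair is transcribed in opposite directions. On the far side of Cspg4 come Snx33 (56917193 to 56928371, minus strand), a sorting nexin that binds membranes, Imp3 (56937475 to 56938398) and Snupn (56950878 to 56983206), the last 2 on the plus strand. Ptpn9, a phosphatase, starts 129.9 kb and Sin3a 207 kb from Cspg4. Lingo1 starts 68.6 kb away on the other side. The nearest gene beyond the limit is Man2c1, at 265.7 kb. Ptpn9 overlaps Gm10658, and Sin3a overlaps 2700012I20Rik and Man2c1os, on the opposite strand in each case. The sources used here do not say if counting used the strand, so the values of these 2 members are uncertain to that extent. The other 6 overlap no annotated gene.

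The sequences before the starts of 4 members are shown, since Snupn, Imp3 and Odf3l1 were higher in both knockouts while Snx33, which lies between Cspg4 and Imp3, was not. Each is the 250 bases upstream of a RefSeq start in GRCm38.p6, read in the direction of the gene. Snupn is chr9:56950658-56950907, Imp3 chr9:56937250-56937499, Odf3l1 (the first of 2 RefSeq starts) chr9:56853815-56854064 and Snx33 chr9:56928372-56928621. The RefSeq starts of Odf3l1 lie inside its GENCODE span, away from the GENCODE start beside Cspg4, so its window is not the sequence between the pair. Capitals mark CCAAT on either strand (read as ATTGG on the other) and GGAAGT on either strand (read as ACTTCC on the other).
Snupn: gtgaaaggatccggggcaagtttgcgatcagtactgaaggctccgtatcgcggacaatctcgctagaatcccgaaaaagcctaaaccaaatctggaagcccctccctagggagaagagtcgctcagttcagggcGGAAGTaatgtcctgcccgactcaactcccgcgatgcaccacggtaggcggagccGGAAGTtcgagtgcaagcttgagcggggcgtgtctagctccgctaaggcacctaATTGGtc
Imp3: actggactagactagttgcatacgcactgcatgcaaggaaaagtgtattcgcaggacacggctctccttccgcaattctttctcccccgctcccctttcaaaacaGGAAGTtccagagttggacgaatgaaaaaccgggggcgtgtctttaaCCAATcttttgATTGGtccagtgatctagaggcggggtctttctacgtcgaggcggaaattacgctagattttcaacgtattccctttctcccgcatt
Odf3l1: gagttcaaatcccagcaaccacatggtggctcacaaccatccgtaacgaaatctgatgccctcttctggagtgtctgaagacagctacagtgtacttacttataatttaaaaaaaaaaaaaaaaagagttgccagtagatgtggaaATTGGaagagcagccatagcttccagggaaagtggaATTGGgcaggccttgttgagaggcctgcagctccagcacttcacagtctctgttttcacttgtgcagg
Snx33: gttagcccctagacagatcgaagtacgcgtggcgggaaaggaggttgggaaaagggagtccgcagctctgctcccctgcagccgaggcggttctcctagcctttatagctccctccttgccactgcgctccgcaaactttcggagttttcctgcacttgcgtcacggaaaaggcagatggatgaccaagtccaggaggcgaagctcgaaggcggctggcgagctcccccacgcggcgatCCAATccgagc
CCAAT is a common promoter element, and GGAAGT holds the GGAA core that ETS factors recognise. Both were chosen after these sequences had been read, and these 2 motifs do not overlap each other. The GC box GGGCGG and the TATA box TATAAA were counted as well and are not marked. The Snupn window held 1 CCAAT and 2 GGAAGT, the Imp3 window 2 and 1, the Odf3l1 window 2 and 0, and the Snx33 window 1 and 0. Over 32851 RefSeq windows of the same length, 33.8% held CCAAT and 19.7% held GGAAGT on either strand. Of the other motifs, the Snupn window held 1 GGGCGG, which overlaps a GGAAGT, and the Snx33 window 1 TATAAA. The Imp3 and Odf3l1 windows held neither of these. Over all windows 32.7% held GGGCGG and 12.4% held TATAAA. The GC content was 56.8% for Snupn, 48.8% for Imp3, 45.2% for Odf3l1 and 60.8% for Snx33, against a median of 52.4% over all windows. CpG counts were 19, 15, 2 and 20 in the same order, against a median of 6. Of the windows not shown, those of Cspg4, Ptpn9 and both starts of Lingo1 held neither motif, those of the 2 starts of Sin3a held 2 and 3 CCAAT and 0 GGAAGT, and that of the second start of Odf3l1 held 1 CCAAT and 0 GGAAGT.

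Snupn was 36.39, 33.99, 36.71 and 34.57 in the 4 Prkci cKO libraries and 35.32, 32.31 and 38.88 in the 3 Prkcz cKO libraries, against 10.94, 11.19, 11.71 and 10.85 in the 4 controls. Every knockout library was thus far above every control, and even the lowest was 2.76 times the highest control. The means were 35.4 ± 1.34 (SD, n = 4) in Prkci cKO, 35.5 ± 3.29 (SD, n = 3) in Prkcz cKO and 11.2 ± 0.386 (SD, n = 4) in controls, so that the ratio to controls was 3.17 in Prkci cKO and 3.18 in Prkcz cKO. The log2 differences, fitted with limma on log2(value + 0.5), were 1.62 (SE 0.063) in Prkci cKO and 1.62 (SE 0.068) in Prkcz cKO. These comparisons share the same controls, here and for every other member.

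Imp3 was 22.33, 21.91, 20.67 and 23.21 in Prkci cKO and 24.83, 24.45 and 24.79 in Prkcz cKO, against 14.18, 13.19, 15.72 and 15.51 in controls. The groups again did not overlap, and the 3 Prkcz cKO libraries lay above all 4 Prkci cKO libraries. The ratio of means to controls was 1.50 in Prkci cKO and 1.69 in Prkcz cKO, with log2 differences of 0.57 (SE 0.066) and 0.74 (SE 0.071).

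Odf3l1 was close to the limit of detection in controls, at 0.04, 0.04, 0 and 0, which corresponds to at most 0.914 read equivalents in a library. It was 0.54, 1.38, 0.76 and 0.92 in Prkci cKO and 1.42, 1.15 and 0.81 in Prkcz cKO, or 13.0 to 31.0 and 11.9 to 35.0 read equivalents. All 7 knockout libraries lay above all controls, but they varied more among themselves than for any other member, with a coefficient of variation of 39.5% in Prkci cKO and 27.1% in Prkcz cKO. No ratio is given because 2 controls were listed at 0. The fitted log2 differences were 1.40 (SE 0.204) in Prkci cKO and 1.63 (SE 0.221) in Prkcz cKO, and for so low a gene they depend on the added 0.5: with 0.1 in its place they were 3.01 and 3.34, and with 1 they were 0.88 and 1.05.

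Cspg4 itself was 21.88, 21.19, 23.20 and 24.81 in Prkci cKO and 22.36, 23.88 and 18.22 in Prkcz cKO, against 17.33, 17.45, 20.08 and 14.58 in controls. All 4 Prkci cKO libraries were above the highest control, whereas 2 of 3 Prkcz cKO libraries were and replicate 3, the shallowest library, fell within the control range. The ratio of means was 1.31 in Prkci cKO and 1.24 in Prkcz cKO, with log2 differences of 0.39 (SE 0.0999) and 0.30 (SE 0.108).

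Snx33 showed no such separation although it lies between Cspg4 and Imp3. It was 12.10, 10.98, 9.61 and 11.71 in Prkci cKO and 11.38, 13.02 and 11.65 in Prkcz cKO, against 12.73, 11.37, 11.13 and 10.95 in controls. The ranges overlapped, and the log2 differences were -0.06 (SE 0.085) in Prkci cKO and 0.06 (SE 0.091) in Prkcz cKO. Along the chromosome the higher genes were thus not a continuous run.

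Ptpn9, the next gene after Snupn, was 59.31, 64.49, 58.62 and 56.55 in Prkci cKO and 52.21, 52.04 and 49.85 in Prkcz cKO, against 53.64, 50.49, 43.74 and 49.84 in controls. The Prkci cKO libraries lay above every control and every Prkcz cKO library, while the Prkcz cKO libraries lay within the control range. The log2 differences were 0.27 (SE 0.062) in Prkci cKO and 0.06 (SE 0.067) in Prkcz cKO. Sin3a ranged from 39.15 to 43.1 in Prkci cKO and from 37.59 to 38.11 in Prkcz cKO, against 34.47 to 40.39 in controls (log2 differences 0.12, SE 0.056, and -0.01, SE 0.061). Lingo1, the most abundant member, ranged from 438 to 468 in Prkci cKO and from 427 to 467 in Prkcz cKO, against 432 to 477 in controls (log2 differences -0.01, SE 0.046, and -0.03, SE 0.050). Both genes overlapped controls in each knockout.

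**Figure D1:**
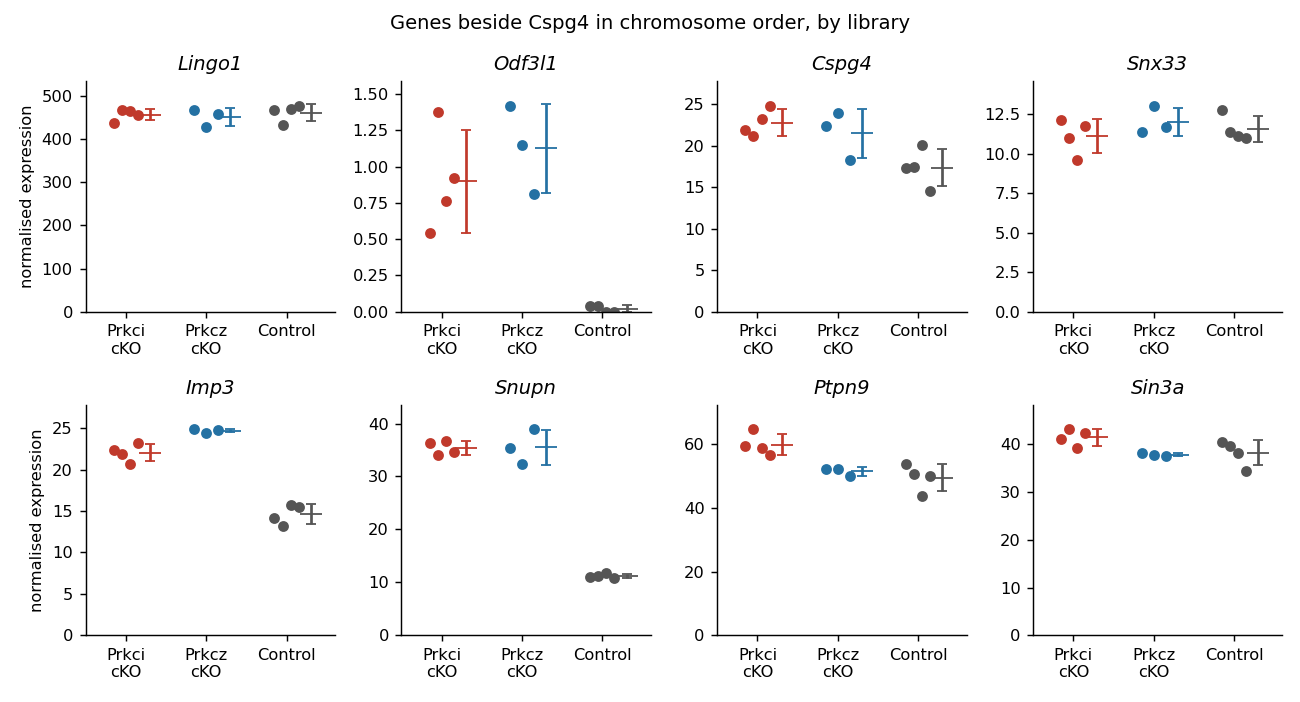
Normalised expression (vertical axis, from 0) of the 8 genes in chromosome order, with a point per library in Prkci cKO (n = 4), Prkcz cKO (n = 3) and controls (n = 4), and the mean with SD beside the points. Snupn, Imp3 and Odf3l1 are above all controls in every knockout library; Snx33 and Lingo1 overlap controls in both knockouts.

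Counted over the 8 genes, every Prkci cKO library was above every control for 5 members (Cspg4, Snupn, Imp3, Odf3l1 and Ptpn9), where 3.18% of the 14330 genes tested did so. Every Prkcz cKO library was above every control for 3 members (Snupn, Imp3 and Odf3l1), where 5.16% of all genes did so. Odf3l1, which passed the filter through knockout libraries alone, had to differ to be counted, and the members were chosen with these contrasts known, so nothing is read from these counts. For genes other than the members, a call is a limma adjusted p under 0.05. Of all genes tested, 1.61% were called in Prkci cKO (0.0977% higher) and 0.649% in Prkcz cKO (0.0279% higher). An unadjusted limma p under 0.05 was found for 1730 of the 14330 in Prkci cKO and 2144 in Prkcz cKO.

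Levels can be compared between genes only per length of annotated exons. In controls, the mean value per kilobase of exon was 97.9 for Lingo1, 15.9 for Imp3, 10.6 for Ptpn9, 8.04 for Snupn, 7.10 for Sin3a, 2.53 for Snx33, 1.46 for Cspg4 and 0.0153 for Odf3l1. In knockouts Snupn moved up this order, to 25.5 in both Prkci cKO and Prkcz cKO, next to Imp3 at 23.9 and 26.8. The added level is the knockout mean minus the control mean, per kilobase of exon. For Snupn it was 17.4 in Prkci cKO and 17.5 in Prkcz cKO. In the same order it was 8.02 and 10.9 for Imp3, 2.21 and 0.416 for Ptpn9, and 0.672 and 0.845 for Odf3l1. It was 0.603 and -0.0784 for Sin3a, 0.453 and 0.346 for Cspg4, -0.0974 and 0.103 for Snx33, and -0.982 and -2.16 for Lingo1. The higher genes therefore differed from controls by unequal amounts, both as ratios and as added level. Within libraries, the ratio of the Snupn value to the Imp3 value was 1.61 ± 0.124 in Prkci cKO and 1.44 ± 0.124 in Prkcz cKO, against 0.766 ± 0.0624 in controls (SD, n = 4, 3 and 4). The ratio of Snupn to Snx33 was 2.95 to 3.82 in Prkci cKO and 2.48 to 3.34 in Prkcz cKO, against 0.859 to 1.05 in controls.

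The differences were set beside those of the genes farther along chromosome 9. No other gene with a matched position had its start within 250 kb of Cspg4, while 671 of the 16228 genes had no position. Of 22 tested genes between 250 kb and 1 Mb away, none was called by limma in either comparison with controls, and 2 in Prkci cKO and 0 in Prkcz cKO had an unadjusted p under 0.05. Their log2 differences ran from -0.24 (Scamp2) to 0.12 (Scaper) in Prkci cKO, with a median of 0.01, and from -0.20 (Scamp2) to 0.21 (Commd4) in Prkcz cKO, with a median of 0.00; over all genes the medians were 0.00 and -0.01. Man2c1, a cytosolic mannosidase just outside the limit, had log2 differences of 0.04 (SE 0.077) in Prkci cKO and -0.07 (SE 0.083) in Prkcz cKO. The next tested gene, the DNA glycosylase Neil1, had -0.03 (SE 0.155) and 0.05 (SE 0.167). Its values, 1.3 to 2.08, were near the filter limit of 1. Just inside the limit were Sin3a and, before it, Ptpn9, with the values above. Of 64 genes 1 to 5 Mb away none was called (unadjusted p under 0.05 for 4 in Prkci cKO and 13 in Prkcz cKO). Their log2 differences ran from -0.76 (Crabp1) to 0.29 (Cib2) in Prkci cKO and from -0.37 (B930082K07Rik) to 0.30 (Cib2) in Prkcz cKO. Of 705 on the rest of the chromosome none was called higher, while 16 were called lower in Prkci cKO and 3 in Prkcz cKO.

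**Figure D2:**
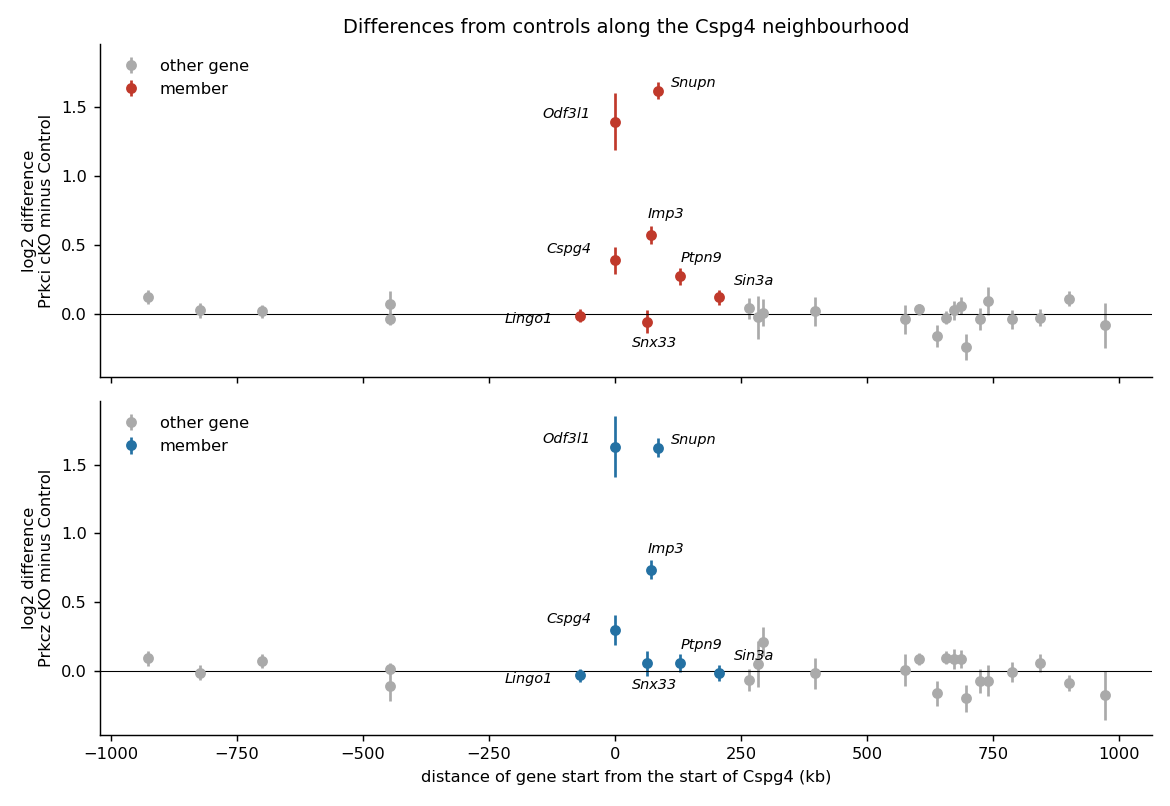
Log2 difference from controls (vertical axis, limma coefficient with SE) of tested genes by the distance of their start from the start of Cspg4 in kb (horizontal axis), in Prkci cKO (upper panel) and Prkcz cKO (lower panel). Coloured points are the 8 members and grey points the 22 other genes within 1 Mb. The grey points lie between -0.24 and 0.21; Odf3l1, Imp3, Snupn and Cspg4 are above them in both panels and Ptpn9 in the upper one, and Snx33, Lingo1 and Sin3a are within their range.

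The comparison of the knockouts with each other was not itself used to choose the genes, and both groups carry Ng2-Cre. However, Snupn, Imp3 and Odf3l1 were chosen as higher in both knockouts, from these same libraries. That choice can favour genes with like values in the knockouts, so their differences here are not independent of it. None of the 8 members passed between the knockouts (limma, adjusted over 14330 genes, of which 0.300% were called). An unadjusted limma p under 0.05 was found for 3 members and for 2290 of the 14330 genes. The log2 difference of Snupn between Prkci cKO and Prkcz cKO was 0.00 (95% interval -0.15 to 0.15, adjusted p = 0.999). Imp3 was 22.0 ± 1.06 in Prkci cKO (SD, n = 4) and 24.7 ± 0.209 in Prkcz cKO (SD, n = 3), a log2 difference of -0.16 (95% interval -0.31 to -0.01, limma adjusted p = 0.292). Odf3l1 differed by -0.23 (-0.71 to 0.24, limma adjusted p = 0.616) and Cspg4 by 0.09 (-0.14 to 0.32, limma adjusted p = 0.709). Ptpn9 had the smallest p of the 8: it was 59.7 ± 3.38 in Prkci cKO (SD, n = 4) and 51.4 ± 1.32 in Prkcz cKO (SD, n = 3), higher in 4 of 4 Prkci cKO libraries, with a log2 difference of 0.21 (95% interval 0.07 to 0.36) that did not pass (limma adjusted p = 0.185). Sin3a differed by 0.13 (0.00 to 0.26, limma adjusted p = 0.311), Snx33 by -0.11 (-0.31 to 0.08, limma adjusted p = 0.558) and Lingo1 by 0.02 (-0.09 to 0.13, limma adjusted p = 0.881). These intervals bound the differences, and a p above the threshold does not show that the knockouts were alike.

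**Figure D3:**
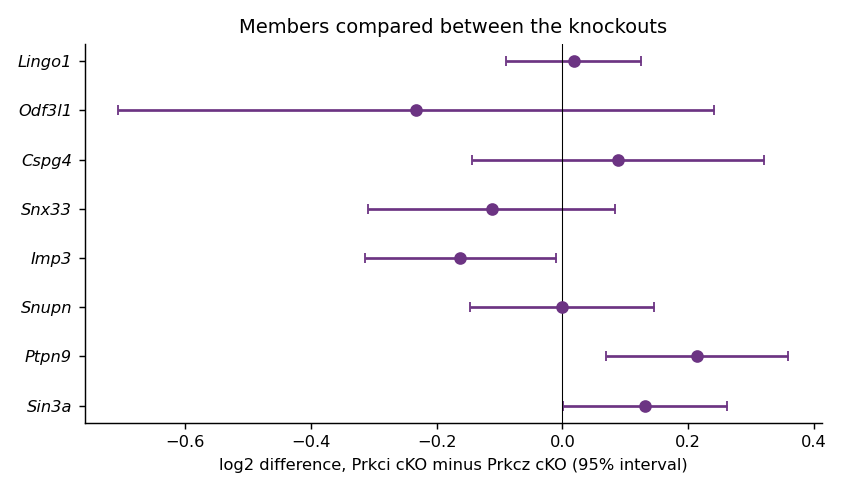
Log2 difference between Prkci cKO (n = 4) and Prkcz cKO (n = 3) for each member (horizontal axis, limma coefficient with 95% interval; genes in chromosome order down the vertical axis). The interval of Snupn is centred on 0.00, Imp3 lies below 0 and Ptpn9 and Sin3a above it, and none passed the threshold after adjustment.

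The controls were of 2 genotypes, which gave a second comparison that was not itself used to choose the genes. Snupn, Imp3 and Odf3l1 were, however, chosen as higher than in these same controls. That choice can favour genes with like values among the controls, so their differences here are not independent of it. None of the 8 members passed between the 2 Pkcz f/f and the 2 Pkcz f/+ controls after adjustment (limma with 4 groups). For Odf3l1, at 0 to 0.04 in controls, a difference could not have been found, so nothing is read from it here. Of all genes, 0.154% were called. An unadjusted limma p under 0.05 was found for 1 member and for 1802 of the 14330 genes. Imp3 was 15.72 and 15.51 in the f/f controls against 14.18 and 13.19 in the f/+ controls, higher by 0.18 (log2, SE 0.079) in the f/f controls, with a limma adjusted p of 0.375. Snupn differed by 0.03 (SE 0.090, limma adjusted p = 0.931), Cspg4 by -0.02 (SE 0.145), Ptpn9 by -0.15 (SE 0.079) and Sin3a by -0.14 (SE 0.071). The Imp3 difference between control genotypes was smaller than its difference from controls in either knockout.

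Cspg4 was then set beside other markers of the cells that express it. Of 18 oligodendrocyte precursor markers without Cspg4, 4 were called lower by limma in Prkci cKO and none higher (unadjusted p under 0.05 for 11). In Prkcz cKO 3 were called lower by limma and none higher (unadjusted p under 0.05 for 8). Gpr17, a receptor of differentiating precursors, fell by 0.60 (log2, SE 0.063, limma adjusted p = 8.08e-04) in Prkci cKO and by 0.77 (SE 0.068, limma adjusted p = 1.86e-04) in Prkcz cKO. The lineage transcription factors Olig1 and Sox10 fell in both knockouts and Olig2 in Prkci cKO. The other markers of the list, Pdgfra among them, were not called in either knockout. Log2 differences of single markers ran from -0.69 to 0.16 in Prkci cKO and from -0.77 to 0.08 in Prkcz cKO. The median log2 difference of the list was -0.22 in Prkci cKO and -0.21 in Prkcz cKO, against 0.00 and -0.01 over all genes. Its summed value was 983 to 1065 in Prkci cKO and 932 to 998 in Prkcz cKO, against 1075 to 1163 in controls. Cspg4 was above most controls in libraries whose summed precursor value was below every control. The called markers were Gpr17 and lineage transcription factors, and Pdgfra was not called, so the sum does not measure precursor number alone. The part of precursor number in the Cspg4 values was not tested. In whole tissue, fewer cells of a type and less RNA per cell cannot be told apart.

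Pericyte and mural cell markers, the other NG2-expressing class, were not higher either. Of 13 tested, the adhesion molecule Mcam was called lower in Prkci cKO (unadjusted limma p under 0.05 for 1). Mcam and Rgs5 were called lower in Prkcz cKO (unadjusted limma p under 0.05 for 9). Median log2 differences were -0.01 in Prkci cKO and -0.30 in Prkcz cKO. Their summed value was 189 to 219 in Prkci cKO and 156 to 174 in Prkcz cKO, against 198 to 229 in controls. Mature oligodendrocyte markers moved with the knockouts as well: 7 of 8 were called lower in Prkci cKO and 2 of 8 in Prkcz cKO. All 8 had negative log2 differences and an unadjusted limma p under 0.05 in each knockout, with medians of -0.89 and -0.62. Of 4 astrocyte markers 1 fell in Prkcz cKO, as did 2 of 4 endothelial markers (Flt1 and Kdr). In Prkci cKO none of the 4 endothelial markers was called (limma; unadjusted p under 0.05 for 3), but all had positive log2 differences, with a median of 0.18 in Prkci cKO and -0.36 in Prkcz cKO. Their summed value was 126 to 134 in Prkci cKO and 84.6 to 89.6 in Prkcz cKO, against 108 to 118 in controls. None of 4 microglial markers was called by limma in either knockout (unadjusted p under 0.05 for 1 in Prkci cKO and 2 in Prkcz cKO). The part of these shifts in the values of the 8 genes was not tested.

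**Figure D4:**
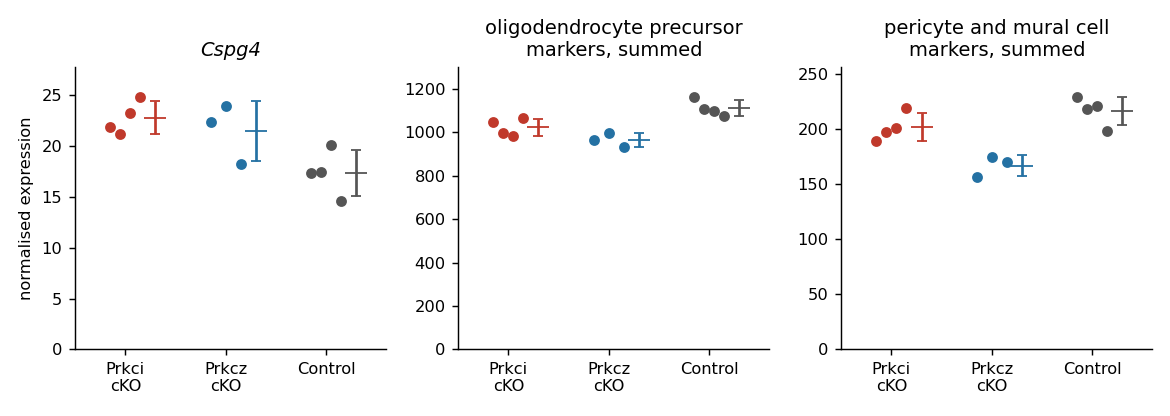
Normalised expression of Cspg4 and summed values of 18 oligodendrocyte precursor and 14 pericyte and mural cell markers, by library, in Prkci cKO (n = 4), Prkcz cKO (n = 3) and controls (n = 4), with mean and SD beside the points and axes from 0. Cspg4 averages 22.8 and 21.5 in the knockouts against 17.4 in controls, while the precursor sums of all knockout libraries are below the lowest control sum of 1075.

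Genes that work with the members, or only belong to the same family, as for the phosphatases and outer dense fibre genes, were then counted. Of 23 tested genes of small nuclear ribonucleoprotein import and assembly, the partners of Snupn, none was called by limma in either knockout (unadjusted p under 0.05 for 2 in each), with median log2 differences of 0.00 in Prkci cKO and 0.04 in Prkcz cKO. Of 32 genes of the small subunit processome, which holds Imp3, none was called (medians 0.01 in Prkci cKO and 0.03 in Prkcz cKO; unadjusted p under 0.05 for 2 and 0). None was called among 19 genes of the SIN3 complex (medians 0.01 and 0.02; unadjusted p under 0.05 for 0 and 3). The same held for 12 other non-receptor phosphatases (medians -0.01 and -0.11; 2 and 4) and for 6 genes of the SNX9 family and its membrane remodelling partners (medians -0.07 and -0.06; 1 and 2). Among 14 genes of the NOGO and LINGO receptor group, Mag, a myelin glycoprotein that is also counted among the mature oligodendrocyte markers, fell in Prkci cKO (log2 difference -0.95 with SE 0.132, limma adjusted p = 0.00226) and none was called in Prkcz cKO (unadjusted p under 0.05 for 5). Of the other outer dense fibre genes listed, Odf2 passed the filter, with log2 differences of 0.05 in Prkci cKO and -0.02 in Prkcz cKO, and it was not called.

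The genes most like Snupn over the 11 libraries were sought among 12126 others whose log2 values averaged 2 or more, by the mean absolute difference of standardised values. The closest were Abhd11 (0.317), a mitochondrial hydrolase, Basp1 (0.323), a growth cone protein, Pex3 (0.357), needed for peroxisomes, Polr2j (0.359), a subunit of RNA polymerase II, and Cib2 (0.360), a calcium-binding protein whose gene lies 1 to 5 Mb from Cspg4. The median over all genes compared was 1.10. The other members are left out of this ranking, since Imp3 and Odf3l1 were chosen together with Snupn for the same pattern. A shared shape, with higher values in knockouts, follows from this ranking and is not a result. The size was not shared: the log2 differences of these 5 genes were 0.12 to 0.29 in Prkci cKO and 0.13 to 0.30 in Prkcz cKO. None of the 5 passed the threshold. For Cspg4 the closest were Camk2n2 (0.359), Wnt5a (0.367), Ctps2 (0.385), Nudt16 (0.394) and the gene model Gm10493 (0.424), none of them called.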

How the data were processed

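The table holds 16228 genes and 11 libraries. The submitters' processing notes name GRCm38 and the tools FastQC, Trim Galore, STAR, RSEM and edgeR; the sources used here give no versions, annotation or strandedness. Per the file, the authors deposited a normalised signal with 2 decimals, whose scaling between libraries the sources used here do not describe. Of the values under 0.5 in a library, 86.3% to 89.9% were within 0.0051 of a multiple of a library-specific step, which gave the relative depth. This is short of nearly all genes, so no count test was run.

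The filter kept 14330 genes that reached 1 in 3 or more libraries. All 11 libraries entered one limma 3.58.1 fit (R 4.3.3, variance trend, 8 residual degrees of freedom) of log2(value + 0.5), a scale that understates changes of low genes. P-values were two-sided, with Benjamini-Hochberg adjustment over all genes and a threshold of 0.05. Read equivalents are values divided by the step and cover counting only.

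The members, lists, motifs and tests were chosen with earlier results of these data known. Named genes are the 8 members, Prkci and Prkcz, the genes next to the 250 kb limit and at the ends of the ranges given, the 5 genes most like Snupn and Cspg4 and called genes of the lists. Symbols were matched to GENCODE M21 on GRCm38 (15557 of 16228, 1353 of them through RefSeq synonyms), and promoter windows came from RefSeq (GRCm38.p6). Replicate numbers were not taken as pairs: same-numbered libraries of different groups had correlations of their deviations between -0.186 and 0.196. The labels give no batch. Alternatives were other added values, filters and scalings, no variance trend, only the compared groups, f/f controls alone, a replicate block and each library left out.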

Additional observations from a re-analysis of the deposited data

How the results depend on the processing

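The differences of Snupn from controls stayed between 1.58 and 1.66 in Prkci cKO and between 1.55 and 1.69 in Prkcz cKO (log2) over 21 alternatives, and those of Imp3 between 0.48 and 0.61 and between 0.64 and 0.77. Among these, other filters, no variance trend, fitting only the compared groups or leaving out the third group's libraries cannot change these differences. Against the f/f controls alone Imp3 moved by more than the spread between replicates, to 0.48 in Prkci cKO and 0.64 in Prkcz cKO; those controls had the higher Imp3. No alternative brought a member past the threshold between the knockouts. The near-zero values there changed sign: Snupn was 0.012 with a replicate block and -0.065 to 0.066 when single libraries were left out, Cspg4 was -0.023 to 0.17 (below 0 without Prkcz cKO replicate 3), and Lingo1 was -0.0040 with column sums equalised without Rn45s and -0.021 to 0.044 with single libraries left out (below 0 without Prkcz cKO replicate 2). Between the control genotypes, leaving out libraries gave -0.25 to 0.20 for Cspg4 (above 0 without Control replicate 4) and -0.027 to 0.078 for Snupn (below 0 without Control replicate 3); Ptpn9 was -0.25 without Control replicate 4 and -0.062 without replicate 3, and Sin3a -0.21 without replicate 3 and -0.064 without replicate 4, neither of them called.

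Counts of all genes called depended more on the settings. For Prkci cKO against controls the count was 132 with f/f controls alone and 94 to 350 when a library was left out, lowest without Prkci cKO replicate 2 and highest without Prkcz cKO replicate 3. For Prkcz cKO against controls it was 28 with only the compared groups fitted, 30 without a variance trend, 59 with f/f controls alone and 12 to 111 with a library left out, lowest without Prkcz cKO replicate 2. Between the knockouts it was 65 with f/f controls alone, 73 with the replicate block and 10 to 151 with a library left out, lowest without Prkci cKO replicate 1 and highest without Prkcz cKO replicate 1. Between the control genotypes, alternatives chosen after seeing the data gave 12 without a variance trend and 5 to 40 with a library left out, where an arm of 1 control is assumed to vary like the other groups. The causes of these shifts were not tested. The block used replicate numbers, which the labels do not tie to litters or days; 5 of 10 same-numbered pairs correlated above 0.1. Odf3l1 has no value with the filter at 5, with only the groups compared with controls fitted, or where Prkci cKO replicate 2 or Prkcz cKO replicate 1 or 2 was left out, since it then failed the filter. At this depth its level in controls could not be told from 0.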
